A study of Mus musculus with 3 samples.

Results

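The miR-191/miR-425 cluster was followed in extracellular vesicles (EVs) from the neonatal mouse testis. Its members are the 4 mature arms mmu-miR-191-5p, mmu-miR-191-3p, mmu-miR-425-5p and mmu-miR-425-3p (written below without the species prefix), taken by name from the catalogue of small RNAs of each library. They are 4 of 805 miRNA identifiers with a mature or hairpin entry in any library, and each was counted in both types of entry in all 3 libraries. The libraries were made from EVs of whole decapsulated testes of C57/BL6 male mice at postnatal day 7 (PND7), with 10 mice for each EV preparation. They were isolated from the supernatant of testis cells released by an enzyme digest, so vesicles present in the tissue and vesicles released by the digest cannot be told apart. The EVs were treated with proteinase K, PMSF and RNase A before RNA was extracted. All libraries belong to this condition, and their titles carry the word treated. The levels are therefore a description, and comparisons were made between members within a library. The vesicles come from a mixture of testis cells, so fewer cells of a type and less RNA per cell cannot be told apart.

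A miRNA gene gives an RNA hairpin that is cut into a short duplex, and either strand of the duplex can be kept as a mature miRNA. The strand from the 5′ side is named 5p and the other 3p, and the bases from position 2 to 8, the seed, do most of the target recognition. Mir191 and Mir425 lie next to each other and can be made from a shared primary transcript. miR-191-5p is expressed in many tissues and is often used as a reference miRNA in RT-qPCR.

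The mature sequences, from RefSeq on GRCm38.p6, are shown 5′ to 3′ with the seed in capitals, because the seed sets the members apart.
miR-191-5p: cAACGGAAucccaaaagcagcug
miR-191-3p: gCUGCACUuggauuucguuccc
miR-425-5p: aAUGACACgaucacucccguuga
miR-425-3p: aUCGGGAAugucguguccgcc
The seeds are all different. Among the mouse mature miRNAs of the RefSeq table, a member's seed was found again in 1 case, AUGACAC of miR-425-5p, which miR-489-3p also carries.
miR-489-3p: aAUGACACcacauauauggcagc
miR-489-3p had no row in any catalogue, so among the miRNAs of the table this seed was represented in the EVs by miR-425-5p alone.

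The hairpins are shown to give the position of each arm, and the capitals mark the mature arms.
Mir191: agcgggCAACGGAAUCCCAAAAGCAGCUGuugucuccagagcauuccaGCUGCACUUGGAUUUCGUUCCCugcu
Mir425: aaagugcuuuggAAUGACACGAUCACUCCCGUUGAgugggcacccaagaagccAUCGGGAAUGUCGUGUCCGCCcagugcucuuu
Mir191 is 74 bases long, at chr9:108568319-108568392 on the plus strand, and Mir425 is 85 bases long, at chr9:108568777-108568861 on the same strand. They are separated by 384 bases, and 54.1% of the bases are G or C in either hairpin. miR-191-5p covers bases 7 to 29 and miR-191-3p bases 49 to 70 of Mir191. miR-425-5p covers bases 13 to 35 and miR-425-3p bases 54 to 74 of Mir425.

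The cluster is usually placed in an intron of Dalrd3, and the annotations differed on that. In RefSeq, Dalrd3 extends from 108567484 to 108572773 on chromosome 9 and encloses both hairpins, but the table used here gives no exons. In GENCODE vM21, Dalrd3 starts at 108569886, which leaves 1024 bases between Mir425 and the gene. There, both hairpins lie in the single exon of 4833445I07Rik-201, a transcript of the lincRNA 4833445I07Rik. In 4833445I07Rik-202, a second transcript of that gene, Mir191 is intronic and Mir425 lies outside. A further annotated miRNA gene, Gm24083, lies opposite Mir191 on the minus strand, from 108568295 to 108568414. No row of the catalogues carried the name of that gene. Their miRNA rows bear miRNA or family names and not gene symbols, so this does not show whether a product of Gm24083 was present.

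**Figure D1:**
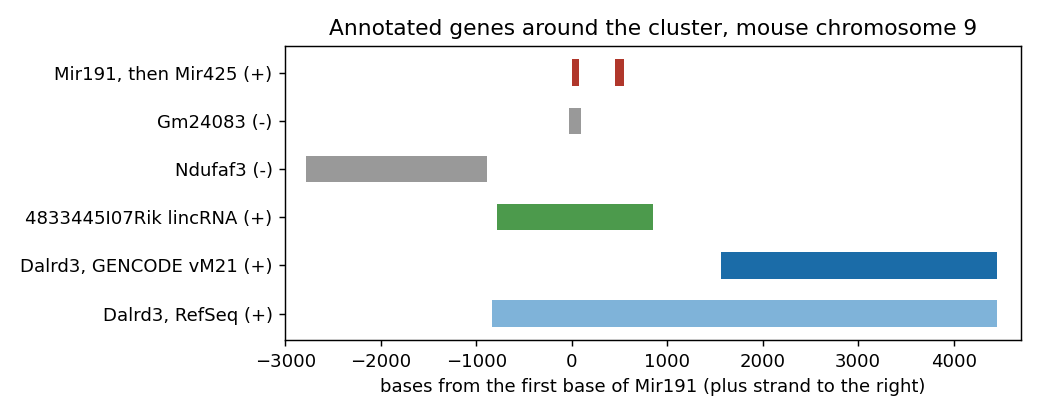
Annotated genes around the cluster on mouse chromosome 9, with the horizontal axis in bases from the first base of Mir191 and 1 bar for each gene. Mir191 and Mir425 are 384 bases apart, and Dalrd3 encloses them in RefSeq but starts 1024 bases after Mir425 in GENCODE vM21.

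The libraries held between 25716952 and 27939308 clean reads, of which 870967 to 1005836 were counted on mature entries and 493345 to 612122 on hairpin entries. For the 272 mature miRNAs that reached 10 counts in all libraries, Spearman's rho of each pair of libraries, across miRNAs, was at least 0.901. A chi-square test of each pair gave at least 96.6 per degree of freedom, far beyond sampling noise, so the libraries were treated as separate samples. miR-202-5p, which is enriched in gonads, had 23963 ± 4952 counts per 1000000 mature counts of a library (CPM) (SD, n = 3). The leukocyte miRNA miR-223-3p had 33, 1 and 21 mature counts in replicates 1, 2 and 3, and 73, 82 and 58 hairpin counts. The erythroid miR-451a had 452, 319 and 385 mature counts, and 1172, 989 and 1174 hairpin counts.

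miR-191-5p was by far the most abundant member, and it was abundant among all miRNAs of the EVs. In replicates 1, 2 and 3 its mature entry had 3561, 4628 and 4325 counts. Scaled to the mature total of the library and given as CPM, these were 4089, 4601 and 4475. The mean was 4388 ± 267 CPM (SD, n = 3), or 0.439% of the mature counts, and ranked 27 among 604 mature miRNAs. The exact Clopper-Pearson 95% interval of replicate 1, from 3956 to 4225 CPM, did not reach those of replicates 2 and 3, so the libraries differed by more than counting error. Such intervals hold for the counting of reads alone, because duplicates from PCR could not be removed.

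The other arm of that hairpin, miR-191-3p, had few mature counts. It had 11, 39 and 34 mature counts in replicates 1, 2 and 3, and a mean of 28.9 ± 14.2 CPM (SD, n = 3), at rank 303. Replicate 1 was the low library. Its interval, from 6.30 to 22.6 CPM, lay below that of replicate 2, from 27.6 to 53.0 CPM.

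miR-425-5p, usually named as the main product of Mir425, was rare as a mature entry. Its counts were 24, 53 and 41 in replicates 1, 2 and 3, with a mean of 40.9 ± 12.6 CPM (SD, n = 3) and rank 267. The lowest value was again that of replicate 1, and the intervals of the libraries overlapped. miR-425-3p had 61, 50 and 57 mature counts, which gave 59.6 ± 10.2 CPM (SD, n = 3) and rank 229. As a mature entry it was the steadier arm of this hairpin, with a highest value 1.41 times the lowest, against 1.91 times for miR-425-5p. The order was reversed among hairpin entries, at 3.61 times for miR-425-3p and 1.27 times for miR-425-5p. With both types summed it was reversed too, at 2.18 and 1.36 times.

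Together the 4 members held 4518 ± 284 CPM of the mature counts (SD, n = 3). miR-191-5p alone made up 97.1% ± 0.199 of the mature counts of the cluster (SD, n = 3). miR-425-3p, miR-425-5p and miR-191-3p followed with 1.33% ± 0.313, 0.896% ± 0.228 and 0.627% ± 0.284. The order of these 3 low members was not the same in every library, because miR-425-5p had more counts than miR-425-3p in replicate 2.

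The hairpin entries, which the authors counted apart from the mature ones, gave another picture of the cluster. The sources used here do not define that type, so a hairpin count is given as a count of those entries and not as a level of precursor RNA. miR-191-5p again led, with 1540, 2378 and 2217 hairpin counts in replicates 1, 2 and 3 and 3615 ± 428 CPM of the hairpin counts (SD, n = 3), at rank 48 of 743. miR-425-5p was next. It had 357, 561 and 502 hairpin counts, 836 ± 101 CPM (SD, n = 3) and rank 98, far higher in the ranking than as a mature entry.

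Among hairpin entries the 3p arms were the lower members. miR-191-3p had 78, 132 and 93 hairpin counts, or 178 ± 32.4 CPM (SD, n = 3). miR-425-3p had 53, 112 and 224 hairpin counts, or 226 ± 145 CPM (SD, n = 3). Its values were the least even of the 8 entries of the cluster, and the highest library exceeded the lowest 3.61 times. Replicate 3 was the high library for this entry, whereas the mature entry of miR-425-3p was not high there. Of all hairpin counts of the cluster, miR-191-5p held 74.6% ± 1.46 and miR-425-5p 17.3% ± 0.623 (SD, n = 3 each).

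**Figure D2:**
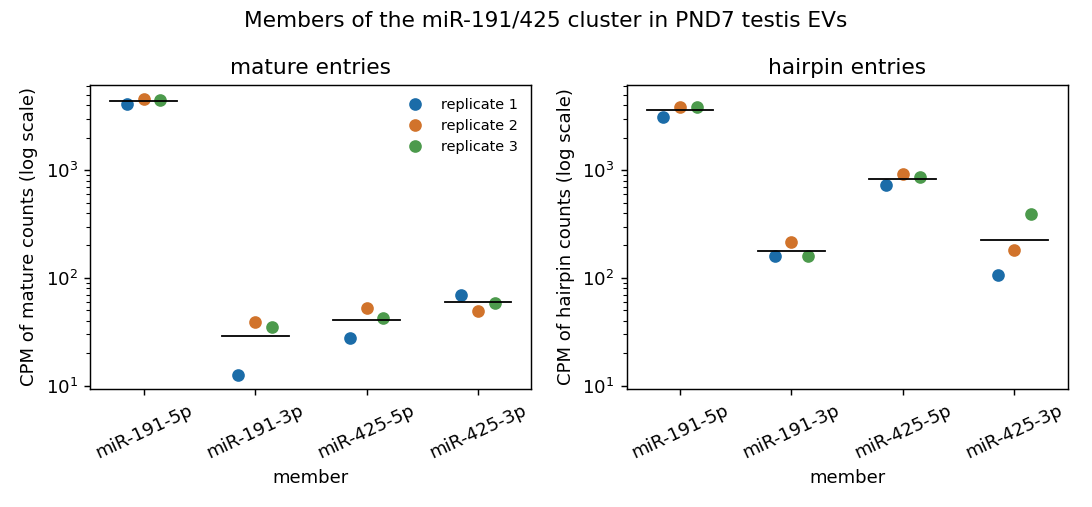
Level of each member in each library, as CPM of the mature counts (left) or hairpin counts (right) on log axes, with 1 point for each library and a line at the mean. miR-191-5p lies between 4089 and 4601 CPM as a mature entry, and miR-425-5p lies between 27.6 and 52.7 CPM as a mature but between 724 and 916 CPM as a hairpin entry.

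Mir191 was counted almost entirely as its 5p arm, in either type of entry. The 5p arm held 99.7%, 99.2% and 99.2% of the mature counts of both arms in replicates 1, 2 and 3. Among hairpin entries it held 95.2%, 94.7% and 96.0%. The log2 ratio of miR-191-5p to miR-191-3p was 7.37 ± 0.78 as mature and 4.34 ± 0.21 as hairpin entries (SD, n = 3 each), and it was above 0 in every library. A two-sided exact permutation test, which flips the signs of the paired values, gave p = 0.25 for either, the least that 3 libraries allow, so no test of this kind can pass a threshold of 0.05. The ratio was larger as mature than as hairpin entries in every library, by 3.03 ± 0.84 log2 units (SD, n = 3; exact p = 0.25).

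Neither arm of Mir425 led in every library among mature entries, whereas the 5p arm did among hairpin entries. The 5p arm held 28.2%, 51.5% and 41.8% of the mature counts in replicates 1, 2 and 3. The exact 95% intervals in replicates 2 and 3, from 41.4% to 61.4% and from 31.9% to 52.2%, included equal shares, and that of replicate 1, from 19.0% to 39.04%, did not. The log2 ratio of miR-425-5p to miR-425-3p was -0.57 ± 0.71 (SD, n = 3), with 1 of 3 libraries above 0 (exact sign-flip permutation test, p = 0.5). Its mean lay within 1 SD of 0, and its sign differed between libraries. With 3 libraries the test cannot decide whether it differs from 0.

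Among hairpin entries the 5p arm of Mir425 held 87.1%, 83.4% and 69.1% of the counts. The log2 ratio was then 2.07 ± 0.82 (SD, n = 3) and above 0 in every library (exact sign-flip permutation test, p = 0.25). With mature and hairpin entries summed it was 1.53 ± 0.52, also above 0 in every library. The hairpin ratio exceeded the mature ratio in each library, by 2.65 ± 1.27 log2 units (SD, n = 3; exact p = 0.25). A lead of the 5p arm of Mir425 was therefore seen in hairpin entries and not in mature entries, whereas that of Mir191 was seen in both.

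The difference between the hairpins was large in either type. The arm log2 ratio of Mir191 exceeded that of Mir425 by 7.94 ± 1.47 as mature and by 2.27 ± 1.00 as hairpin entries (SD, n = 3 each), in every library (exact p = 0.25 for each). Of 134 precursors with both arms named and at least 10 mature counts over them in every library, 5 had a mature arm log2 ratio nearer to 0 than that of miR-425. The median distance from 0 was 6.20 log2 units, and 83 of the 134 lay nearer to 0 than miR-191. By the sign of the mean arm ratio alone, mature and hairpin entries were opposite in 16 of 122 precursors with enough counts in both types, or 13.1%, and miR-425 was among them. In 6 of the 122 they were opposite in every library, and miR-425 was not among these, since its 5p arm was the higher in replicate 2 as a mature entry too.

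**Figure D3:**
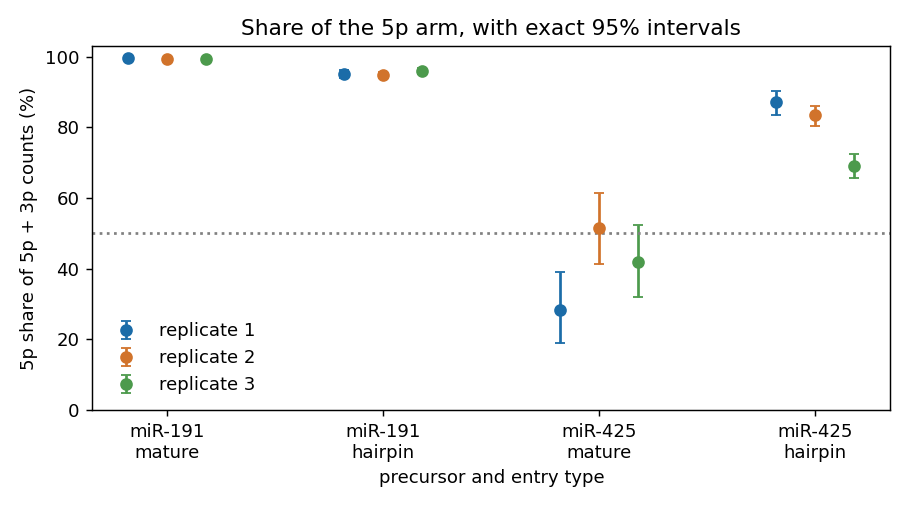
Share of the 5p arm in the counts of both arms (vertical axis, percent) for each precursor and type of entry, with 1 point for each library, bars for exact 95% intervals and a dotted line at equal shares. miR-191 stays at 94.7% or above throughout, whereas miR-425 lies between 28.2% and 51.5% as mature and between 69.1% and 87.1% as hairpin entries.

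The partners of the cluster were far apart in level. miR-191-5p exceeded miR-425-5p by 7.18, 6.43 and 6.70 log2 units as mature entries in replicates 1, 2 and 3, with a mean of 6.77 ± 0.38 (SD, n = 3; exact sign-flip permutation test, p = 0.25). The mean corresponds to a ratio of 109. Between hairpin entries the log2 ratio was 2.11 ± 0.03 (SD, n = 3), or 4.32-fold, and it was nearly the same in all libraries, at 2.11, 2.08 and 2.14. With both types summed the ratio was 3.61 ± 0.12 log2 units, or 12.2-fold. The direction was the same in every library and type, while its size depended on the type.

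The 3p arms of the cluster differed in 1 direction as mature entries and not as hairpin entries. The log2 ratio of miR-191-3p to miR-425-3p was -1.17 ± 1.10 as mature entries (SD, n = 3; exact p = 0.25), with miR-425-3p higher in each library. As hairpin entries it was -0.16 ± 0.97, and miR-191-3p was higher in 2 of 3 libraries (exact permutation p = 1). The order of the 3p arms was therefore the same in every library as mature entries alone.

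The type of entry divided the reads of the members unequally. Of the reads of miR-191-5p, 69.8%, 66.1% and 66.1% were counted as mature in replicates 1, 2 and 3. For miR-425-5p these shares were 6.30%, 8.63% and 7.55%. The log2 ratio of mature to hairpin counts was 1.04 ± 0.14 for miR-191-5p and -3.62 ± 0.24 for miR-425-5p (SD, n = 3 each), against 0.76 ± 0.05 for the totals of the libraries. The 5p arms differed in this ratio by 4.66 ± 0.37 log2 units, in every library (SD, n = 3; exact sign-flip permutation test, p = 0.25).

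The 3p arms lay between them. miR-191-3p was counted mainly as hairpin in each library, with a log2 ratio of -1.99 ± 0.70 (SD, n = 3). miR-425-3p had 53.5%, 30.9% and 20.3% of its reads as mature, and a log2 ratio of -0.97 ± 1.09 (SD, n = 3), which was above 0 in replicate 1. The ratio of miR-425-3p differed between libraries by more than counting error, since the intervals of replicate 1, from 43.9% to 62.9%, and replicate 3, from 15.7% to 25.5%, were apart.

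The ratio varied widely among the miRNAs, and miR-425-5p stood at its low side. Over 364 miRNA identifiers with both entries and at least 10 counts in every library, the median log2 ratio was -0.01, and the quartiles were -1.98 and 1.501. Of these identifiers, 40 had a lower ratio than miR-425-5p, 90 a lower ratio than miR-191-3p, 131 a lower ratio than miR-425-3p and 245 a lower ratio than miR-191-5p. The mature level of miR-425-5p thus left out most of the reads that carry its name.

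**Figure D4:**
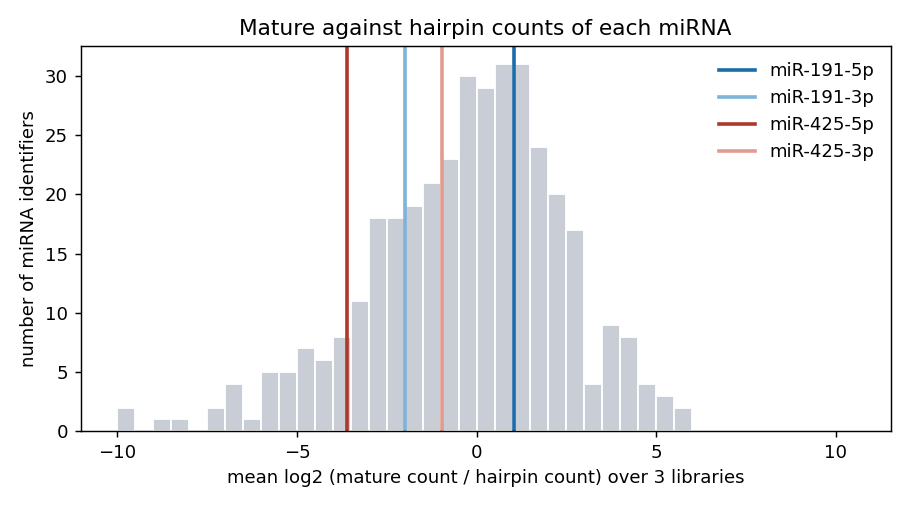
Number of miRNA identifiers (vertical axis) by the mean log2 ratio of mature to hairpin counts over the libraries (horizontal axis), for 364 identifiers, with coloured lines at the members. miR-425-5p lies at -3.62, on the left side of the distribution, and miR-191-5p at 1.04.

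Since miR-191-5p serves as a reference miRNA, its spread between libraries was set beside that of 8 other miRNAs in such use, namely miR-16-5p, miR-25-3p, miR-26a-5p, miR-93-5p, miR-103-3p, miR-423-3p, miR-423-5p and let-7i-5p. The coefficient of variation (CV) of the mature CPM of miR-191-5p was 6.09% (n = 3), and its highest value was 1.13 times the lowest. The CVs of the 8 others ran from 9.44% for let-7i-5p to 41.2% for miR-423-5p, and none was smaller. This held for mature entries and not for hairpin entries, where the CV of miR-191-5p was 11.8% and those of let-7i-5p, miR-26a-5p and miR-423-3p were smaller, at 3.44%, 9.02% and 11.7%. Of those 272 mature miRNAs, 5 had a smaller CV than miR-191-5p, and the median was 28.1%. Of the 71 with a mean of at least 1000 CPM, 1 had a smaller CV, and their median was 18.9%.

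The even level of miR-191-5p depended on the scale. With TMM its CV was 3.30%, and with median-of-ratios size factors 4.25%, with 5 and 11 of the 272 miRNAs smaller. Scaled to clean reads, of which mature miRNAs take a share that differs between libraries, the CV was 12.6%, with 23 of the 272 smaller. A CV over 3 libraries is itself imprecise, and the differences between these CVs were not tested.

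miR-425-5p was not even in this sense. Its CV was 30.9%, with 147 of the 272 miRNAs smaller, and 6 of the 8 reference miRNAs had a smaller one. Summing its mature and hairpin entries gave 15.4%, at a mean of 337 CPM. The CVs of miR-425-3p and miR-191-3p were 17.1% and 49.1% as mature entries, and 43.2% and 24.1% with both types summed. Their mature counts of 11 to 61 in a library limit how well the mature values are known.

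Within libraries, miR-191-5p kept the steadiest distance from let-7i-5p, at -2.96 ± 0.07 log2 units (SD, n = 3). It was below let-7i-5p, miR-26a-5p and miR-16-5p and above the other 5 reference miRNAs in every library. The exact sign-flip permutation test gave p = 0.25 for each of the 8 comparisons, raw and after Benjamini-Hochberg adjustment over them.

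**Figure D5:**
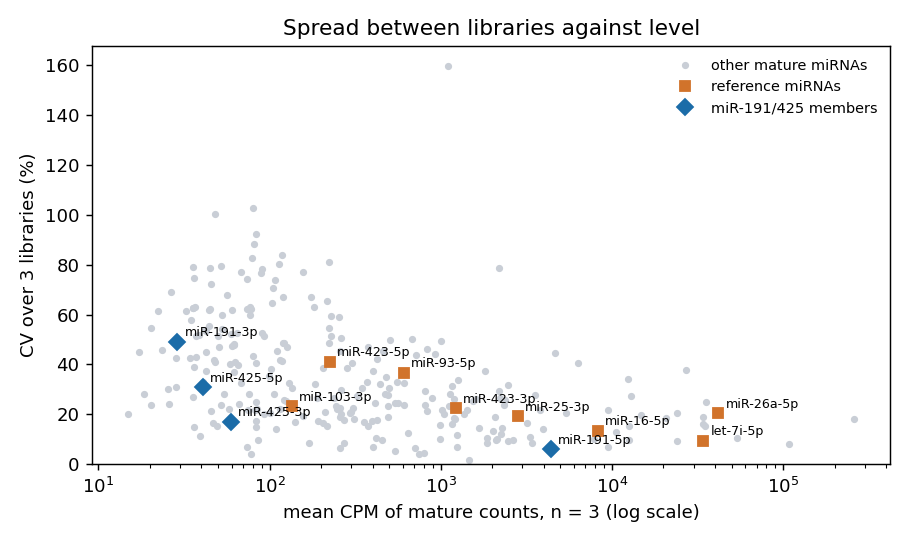
CV over the libraries (vertical axis, percent) against the mean CPM of the mature counts (horizontal log axis) for 272 mature miRNAs, with the members as diamonds and the reference miRNAs as squares. miR-191-5p, at 4388 CPM and a CV of 6.09%, lies lower than all 8 reference miRNAs in these mature entries.

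The neighbours of miR-191-5p in mean level were let-7e-5p, just above with 4676 ± 2083 CPM, and miR-652-3p, just below with 3979 ± 566 CPM (SD, n = 3 each). The log2 ratio of miR-191-5p to let-7e-5p was -0.01 ± 0.57, and that to miR-652-3p was 0.15 ± 0.13 (SD, n = 3 each). miR-191-5p was higher than each of them in 2 of 3 libraries. By Euclidean distance of log2 CPM over the 3 libraries, the nearest miRNAs were miR-652-3p, at 0.32, miR-30b-5p, at 0.55, and miR-27b-3p, at 0.57. For miR-425-5p the neighbours in mean level were miR-669a-3p, which had counts in 2 of 3 libraries, and miR-27b-5p, with 49, 33 and 32 counts. The nearest by distance were miR-297c-5p, at 0.19, miR-378a-5p, at 0.37, and miR-872-3p, at 0.40. Such distances take in the level of a miRNA as well as its course over the libraries.

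The gap between partners was then compared with that in 3 other compact clusters. The measure was the log2 ratio of the highest to the lowest partner of a library in mature counts. Only miR-191-5p and miR-425-5p entered for this cluster, against 3 partners in each other cluster, and more partners can widen a range. In the miR-23b/27b/24 cluster, where miR-24-3p can also come from another hairpin, the range was 1.28 ± 0.33 (SD, n = 3). The range in miR-191/miR-425 was larger in every library, by 5.50 ± 0.63 log2 units (exact sign-flip permutation test, p = 0.25, adjusted over the 3 clusters p = 0.375). With mature and hairpin entries summed, this difference was 1.60 log2 units. Among hairpin entries alone the order was reversed in every library. There miR-27b-3p had 4882, 8305 and 7856 counts in replicates 1, 2 and 3, against 491, 526 and 462 of miR-23b-3p. The log2 ratio of miR-191-5p to miR-425-5p was 2.11, 2.08 and 2.14 in those entries. This reversal was not tested. In the miR-99b/let-7e/miR-125a cluster, whose let-7e-5p is close in sequence to other let-7 members, the range was 3.97 ± 0.17 (SD, n = 3). In mature counts miR-191/miR-425 was again larger in every library, by 2.80 ± 0.49 log2 units (exact permutation p = 0.25, adjusted p = 0.375). With both types summed it was larger by 2.14. Among hairpin entries alone it was also the larger of these clusters in every library, which was not tested.

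The miR-106b-25 cluster gave no such order. Its range was 6.18 and 5.34 log2 units in replicates 1 and 3, below the 7.18 and 6.70 of miR-191/miR-425. In replicate 2, miR-106b-5p had no counts in either type of entry, and the range of 12.72 there rests on the 0.5 added to each count. The mean difference of -1.31 ± 4.32 log2 units (SD, n = 3; exact permutation p = 1) rests on that library, and without replicate 2 it was 1.18. With both types summed it was -4.79, and the range in miR-106b-25 was then the larger in every library (exact permutation p = 0.25). The size of that value also depends on the 0.5 added in replicate 2.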

How the data were processed

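Small RNA of PND7 mouse testis EVs was sequenced by the authors on BGISEQ-500. They removed low-quality reads, mapped clean reads with Bowtie2 and cmsearch (genome build mm10 per the submitters' processing notes, versions not given in the sources used here) and gave each read to 1 entry by a priority of databases. The authors deposited whole-number read counts for each entry and class, without normalization, which were used as they stood. The catalogues' column for unique molecules was left out, since it equals CPM of clean reads where a small RNA is named.

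Counts were divided by the mature or hairpin total of each library and multiplied to CPM, given as mean ± SD over 3 libraries. With 870967 to 1005836 mature counts in a library, 1 count is about 1 CPM. Log2 ratios were formed within libraries with 0.5 added to each count and tested with a two-sided exact permutation test that flips their signs, which can give no p below 0.25 here. Shares have exact Clopper-Pearson 95% intervals. Normalization and ratios were tested on simulated data. The labels call the libraries biological replicates and give no batch.

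The members and lists were chosen with earlier results of these data known. The text names the 4 members, 8 reference miRNAs, partners of 3 clusters, neighbours in level (no minimum) and by distance (at least 10 counts in every library), miRNAs sharing a seed, and precursor entries named for either miRNA. The tests of hairpin against mature ratios, and miR-202-5p, miR-223-3p and miR-451a, were added after values were seen. Alternatives changed the denominator, the normalization (edgeR 4.0.16 TMM and median-of-ratios factors), the pseudocount, the entries summed, pooling, a filter on low counts and each replicate left out. Sequences came from RefSeq (GRCm38.p6, 4 of 4 members matched) and gene positions from GENCODE vM21 (GRCm38, the build of mm10) and RefSeq. Tests used SciPy 1.17.1 in Python 3.11.15, figures matplotlib 3.10.9, and TMM ran in R 4.3.3.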

Additional observations from a re-analysis of the deposited data

Results flagged for a closer look

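A precursor entry of the Rfam family mir-425 was counted outside the mature and hairpin entries that define the cluster. It had 165, 164 and 118 counts in replicates 1, 2 and 3, with a mean of 149 ± 26.9 (SD, n = 3), above the limit of 3 counts that a count of 0 allows, in libraries with no control sample. No precursor entry named for mir-191 was listed. Scaled to the precursor counts of each library, the mir-425 entry had 1405, 1042 and 794 CPM in replicates 1, 2 and 3. This order of the libraries differed from that of the hairpin entry of miR-425-5p, which was lowest in replicate 1. The relation was not tested. No group of the design has enough libraries to be examined for a library that stands apart.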

How the results depend on the processing

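Of 159 values under alternatives to 26 results, 131 were counted as unchanged. For ratios this meant the same direction, for levels a value within the spread between libraries, and for CVs a change below 1.5-fold. A ratio could keep its direction and still change in size. That of miR-191-5p to miR-425-5p fell from 6.77 to 2.11 log2 units with hairpin entries. The mean arm log2 ratio of Mir425 changed sign with the entries counted. It was -0.57 as mature entries, with no common sign over the libraries, 2.07 as hairpin entries and 1.53 with both types summed. Levels changed with the denominator by construction. Scaled to all miRNA entries, mature miR-191-5p, miR-425-5p and miR-425-3p had 2522, 23.4 and 34.3 CPM, and hairpin miR-191-5p, miR-191-3p, miR-425-5p and miR-425-3p had 1229.5, 60.6, 284 and 77.1 CPM. Scaled to clean reads, mature miR-191-5p, miR-191-3p, miR-425-5p and miR-425-3p had 157, 1.05, 1.48 and 2.11 CPM, and the hairpin entries in that order 76.9, 3.81, 17.8 and 4.80 CPM. With both types summed, the 4 members had 4102, 84.4, 337 and 122 CPM.

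The CV of miR-191-5p was 6.09%, 3.30% with TMM and 12.6% of clean reads, and leaving out each replicate in turn gave 1.96% to 8.34%, the lowest without replicate 1. The CV of miR-425-5p was 30.9%, 15.4% with both types summed, and 15.3% to 44.3% with each replicate left out, the lowest again without replicate 1. The range in miR-191/miR-425 minus that in miR-106b-25 was -1.31, and it reversed to 0.20 with pooled counts and to 1.18 without replicate 2, the library in which miR-106b-5p had no counts. With both types summed it was -4.79, and the differences from miR-23b/27b/24 and miR-99b/let-7e/miR-125a fell from 5.50 to 1.60 and from 2.80 to 2.14. Hairpin entries alone were not among the alternatives for these ranges, and in them the order against miR-23b/27b/24 was reversed. The values for miR-106b-25 with each replicate left out ran from -2.65 to 1.18. Depth limits the mature values of miR-191-3p, miR-425-5p and miR-425-3p, which rest on 11 to 61 counts in a library.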
